A study of Mus musculus with 20 samples.

Results

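The nuclear-encoded subunits of the mitochondrial respiratory chain were followed in the liver of adult mice whose mothers had been pregnant at different ambient temperatures. A gene was a member when its symbol in the array annotation named a structural subunit of complexes I to V (Ndufa, Ndufb, Ndufc, Ndufs, Ndufv, Sdha to Sdhd, Uqcr, Cox4 to Cox8 and Atp5 symbols, with Cyc1 and Cycs), and assembly factors and pseudogene symbols were dropped. This gave 86 genes of the 19505 with a symbol, each represented by 1 transcript cluster (the summarised signal of all probes to a gene) of 22206 on the array. Complex I contributed 35 members, complex II 4, complex III 9, complex IV 20, with Ndufa4 and Ndufa4l2 counted there, and complex V 17. The remaining member is Cycs, cytochrome c. Membership of a gene was decided by its symbol.

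The study compared 4 maternal temperatures, and its title concerns heat production by maternal brown fat and how sons handle glucose. Dams of the inbred strain C57BL/6NCr were kept at 10, 18, 23 or 30 °C while pregnant. They had been acclimated for 3 weeks at 30 °C, or for 2 weeks at 18 or 10 °C, and the sires had spent 3 days at the same temperature. Litters and dams went to 23 °C at birth, so offspring of all groups grew up at 23 °C on chow, and 23 °C, the usual housing temperature, is the control. Liver total RNA of 5 adult sons per group, aged 4 to 5 months and wild type in every group, was hybridised to 1 array per animal. A group is called by its dams' temperature, and an animal by its number in the labels. No litter or dam is named, so p-values measure the spread between these 20 arrays, and sons of 1 litter may be among them.

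Complex I (NADH dehydrogenase) and complex II (succinate dehydrogenase) feed electrons from nutrient oxidation into coenzyme Q. Complex III (cytochrome bc1) hands them to cytochrome c, and complex IV (cytochrome c oxidase) passes them to oxygen. Complexes I, III and IV pump protons out of the matrix, and complex V (ATP synthase) uses their return through its c ring to make ATP. The liver depends on the chain for gluconeogenesis, urea synthesis and fat oxidation. Most subunits are encoded in the nucleus, while the mitochondrial genome encodes a small set of hydrophobic core subunits, which were not analysed here.

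Values are log2 units as deposited, so that a difference of 1 is a doubling of signal. Member means over all arrays ranged from 2.65 to 18.5. The 5222 negative control rows, probes meant to match no transcript, averaged between 4.40 and 4.75 per array, and 79 of the 86 members had means above 4.75. The other 7 were Cox4i2 (3.18), Cox6a2 (3.65), Cox6b2 (2.65), Cox7b2 (3.09), Cox8b (2.70), Cox8c (4.03) and Ndufa4l2 (2.68). These are forms known from muscle, testis, lung or hypoxic cells, and are not above the negative control rows in this liver. Genes called above or below background are so by this level of 4.75, and not by the background control rows described later. Cox7a1, the heart and skeletal muscle form that brown fat also uses, averaged 5.38. The hepatocyte markers, Alb among them, were all above the negative rows, 10 of 10. Several members have processed pseudogenes, and Ndufb4 and Ndufb4b are near copies, so their signal may be shared and is uncertain.

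No member passed the Benjamini-Hochberg threshold of 0.05 in limma in any of 8 tests, which were 6 pairwise comparisons, the F-test over the 4 groups and a slope on maternal temperature. Among all clusters the test of 10 °C against 23 °C called 2, or 0.00901%. The share of all clusters called was 0% in 18 °C against 23 °C, 30 °C against 23 °C, 10 °C against 30 °C, 18 °C against 30 °C and 10 °C against 18 °C, and also in the F-test and for the slope. What follows gives the differences of single members with their errors, and the counts of members in each direction.

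In 10 °C offspring the respiratory chain members leaned low. Of the 86 members 67 had a lower mean than in the 23 °C controls and 19 a higher one, with a median log2 difference of -0.15. Over all 22206 clusters 49.6% were lower and the median was 0.0024. Differences ran from -0.88 for Atp5g1 to 0.23 for Ndufb7, against a median standard error (SE) of 0.14. Lower values with an unadjusted limma p under 0.05 were found for 15 members, or 17.4%, against 5.91% of all clusters. No member was higher at that level, against 5.73% of all clusters. In 10 members every 10 °C animal lay below every 23 °C animal, against 1.4% of all clusters, and these were Atp5g1, Atp5g3, Atp5h, Atp5j, Atp5k, Atp5o, Cox7a2, Cox7b, Cox7c and Cycs. In whole liver, fewer cells of a type and less RNA per cell cannot be told apart. The smallest adjusted p of a member was 0.129 (limma, Benjamini-Hochberg over all clusters).

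The background control rows of the arrays differed in level between these groups. The mean of the 23 background control rows was 3.71 ± 0.02 (SD, n = 5) in the 10 °C arrays and 3.65 ± 0.02 in the 23 °C arrays, and these groups did not overlap. It was 3.71 ± 0.04 in the 18 °C and 3.66 ± 0.06 in the 30 °C arrays. With this level as a covariate the median difference of the members was -0.08, with 57 of 86 lower and 0 called. At an unadjusted p under 0.05 in either direction there were then 3 members (3.49%), against 5.59% of all clusters in the same fit. The members' share was thus no longer above that of all clusters. Without the covariate these shares were 17.4% and 11.6%. As the covariate did not overlap between the 10 °C and 23 °C arrays, its part and that of maternal temperature cannot be told apart. Leaving out 23 °C animal 2 moved the median to -0.10, with 63 lower.

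**Figure D1:**
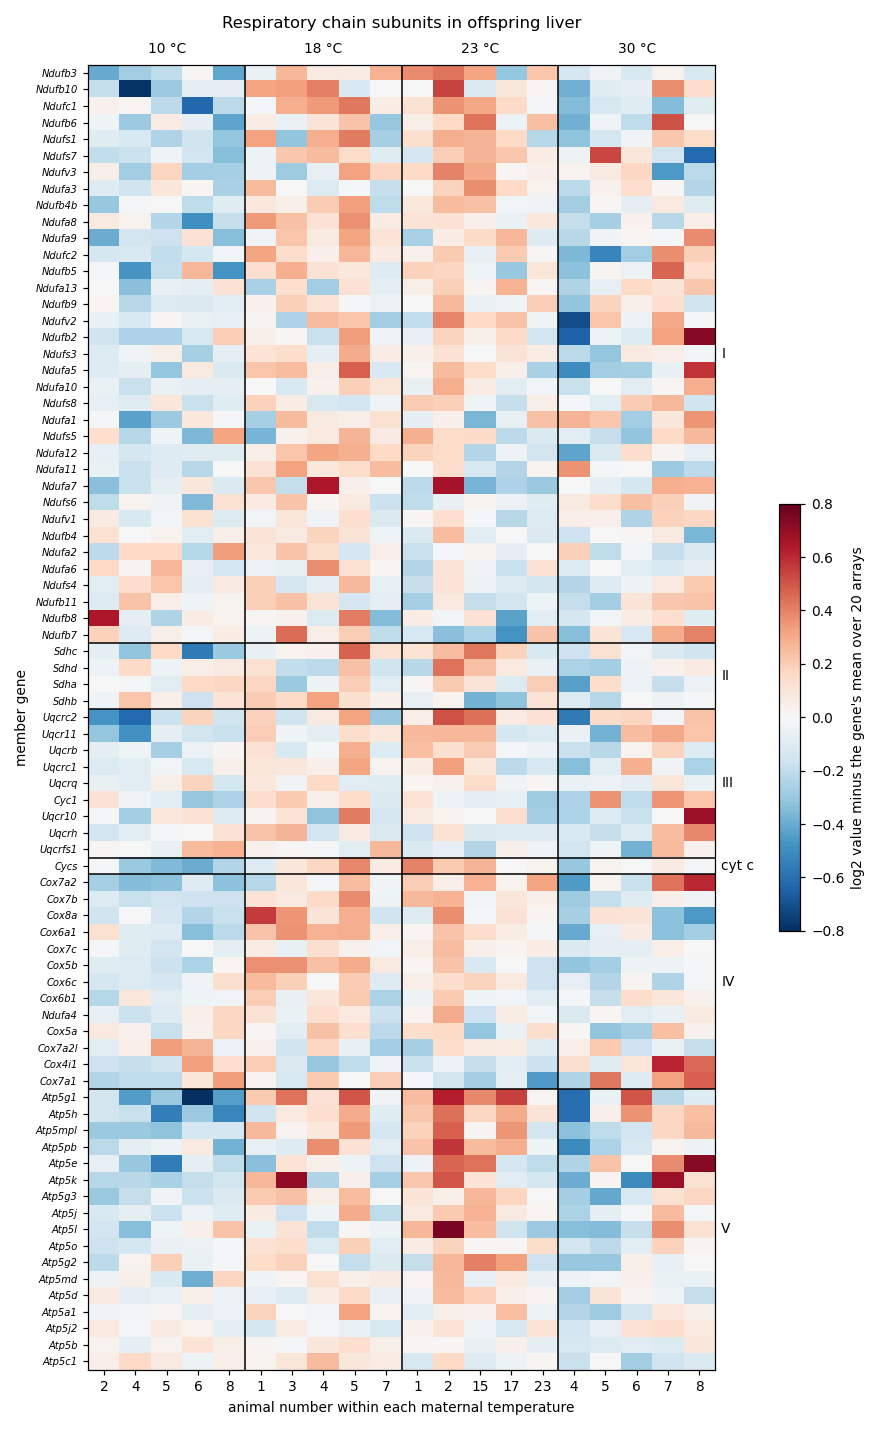
Heat map of the 79 members above the negative control rows (rows, ordered by complex and then by the 10 °C minus 23 °C difference) in 20 arrays (columns, animal numbers within each maternal temperature). Colour gives the log2 value minus the gene's own mean over all arrays; 10 °C columns are mostly blue, 23 °C animal 2 and 18 °C animal 5 are mostly red, and 30 °C animal 4 is mostly blue.

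Complex V carried the lowest values among the complexes with several members. Of its 17 subunits 15 were lower in 10 °C than in 23 °C offspring, with a median of -0.22, and 6 had groups without overlap. The difference between complexes was not tested. Within the enzyme the values were unequal. The 3 c subunit genes had a median of -0.28, the 4 subunits of the peripheral stalk, which holds the catalytic head still, -0.31, and the 5 small membrane subunits -0.22. The 5 subunits of the F1 head and central stalk, where ATP is made, had a median of -0.07 and ran from -0.34 to 0.08. This division into structural parts was drawn up after the values had been seen and is a description.

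Atp5g1 (Atp5mc1), 1 of 3 genes that encode the same mature c subunit of the proton-driven ring, had the largest difference of any member. The 10 °C animals measured 15.06, 14.76, 14.92, 13.98 and 14.77, and the 23 °C animals 15.46, 15.84, 15.60, 15.76 and 15.23. The 18 °C animals measured 15.42, 15.65, 15.33, 15.71 and 15.18, and the 30 °C animals 14.60, 15.16, 15.71, 14.99 and 15.11. All 10 °C animals were below all 18 °C and all 23 °C animals, while the 30 °C animals spread across both ranges. The 10 °C minus 23 °C difference was -0.88 ± 0.20 (SE, n = 5 per group), a 1.84-fold lower signal, with a limma adjusted p of 0.129. Without the lowest animal, number 6, it was -0.70, and with the background covariate -0.66. The sister genes Atp5g3 (-0.28 ± 0.13) and Atp5g2 (-0.14 ± 0.14) were lower by less.

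Atp5h (Atp5pd), subunit d of the peripheral stalk, measured 15.23, 15.20, 14.83, 15.09 and 14.86 in the 10 °C animals and 15.60, 15.82, 15.55, 15.68 and 15.49 in the 23 °C animals. These groups did not overlap, and the difference was -0.58 ± 0.16 (limma adjusted p = 0.169), or -0.31 with the background covariate. The 18 °C animals ran from 15.22 to 15.68 and the 30 °C animals from 14.77 to 15.74, both overlapping with each of the other groups. The other stalk subunits were also lower, with Atp5pb (subunit b) at -0.39 ± 0.14, Atp5j (F6) at -0.23 ± 0.12 and Atp5o (OSCP) at -0.16 ± 0.11. With the covariate Atp5pb was at -0.25. Of the small membrane subunits, Atp5mpl had a difference of -0.41 ± 0.14 and Atp5k, which holds synthase dimers together, -0.33 ± 0.20. The catalytic head subunits were nearer 0. Atp5a1 (alpha) was at -0.07 ± 0.12, Atp5b (beta) at 0.04 ± 0.10 and Atp5c1 (gamma) at 0.08 ± 0.11, and the 95% interval of the Atp5b difference ran from -0.17 to 0.25.

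**Figure D2:**
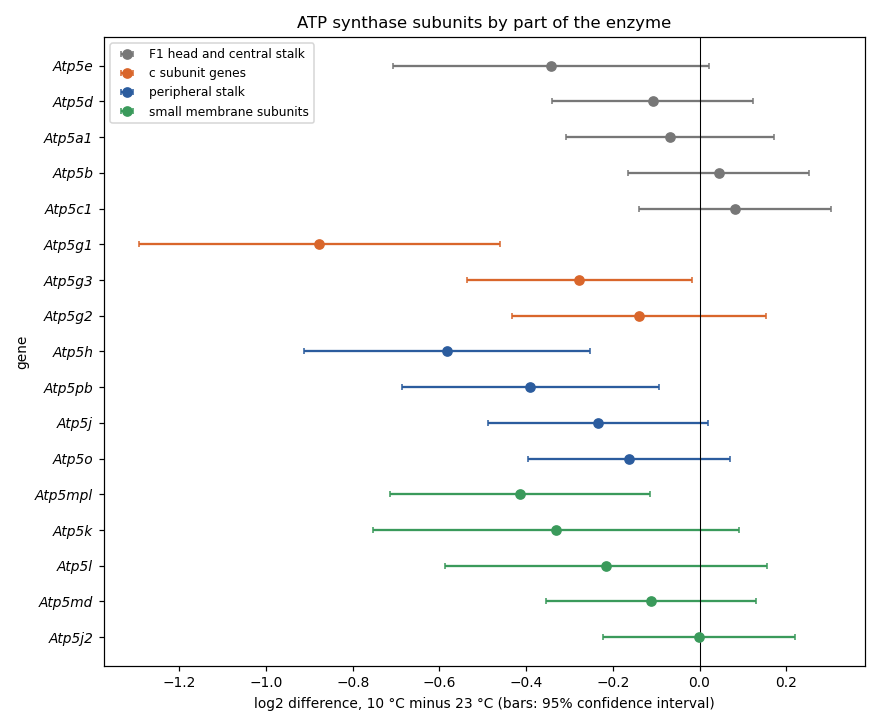
Log2 difference, 10 °C minus 23 °C (horizontal axis), of each of the 17 ATP synthase subunits (vertical axis), with limma's 95% confidence interval as bars and colours for structural parts. Atp5g1 lies at -0.88 and Atp5h at -0.58, while Atp5a1, Atp5b and Atp5c1 lie between -0.07 and 0.08.

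Cycs encodes somatic cytochrome c, the carrier between complexes III and IV. The 10 °C animals measured 15.43, 15.14, 15.08, 15.04 and 15.20, and the 23 °C animals 15.84, 15.64, 15.71, 15.44 and 15.47. The 18 °C animals ran from 15.33 to 15.82 and the 30 °C animals from 15.14 to 15.50. The highest 10 °C animal was just below the lowest control, and the difference was -0.44 ± 0.13 (limma adjusted p = 0.188), or -0.29 with the background covariate.

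Promoters are shown for Cycs and Atp5h, which hold sites for known regulators of respiratory genes, and for Atp5g1, the member with the largest difference, which holds none of those searched. They come from RefSeq (GRCm38.p6), run 5′ to 3′ on the gene's strand from 250 bases before to 50 after the annotated start, and motif matches are in capitals. Cycs lies at chr6:50566520-50566819 (minus strand), Atp5h at chr11:115419870-115420169 (minus strand) and Atp5g1 at chr11:96075582-96075881 (minus strand).
Cycs: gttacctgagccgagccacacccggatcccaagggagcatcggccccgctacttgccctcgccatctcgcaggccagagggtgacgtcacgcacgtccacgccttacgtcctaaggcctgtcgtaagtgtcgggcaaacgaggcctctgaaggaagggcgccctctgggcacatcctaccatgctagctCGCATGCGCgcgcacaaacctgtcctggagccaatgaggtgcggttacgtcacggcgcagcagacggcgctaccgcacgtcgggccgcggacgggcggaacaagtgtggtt
Atp5h: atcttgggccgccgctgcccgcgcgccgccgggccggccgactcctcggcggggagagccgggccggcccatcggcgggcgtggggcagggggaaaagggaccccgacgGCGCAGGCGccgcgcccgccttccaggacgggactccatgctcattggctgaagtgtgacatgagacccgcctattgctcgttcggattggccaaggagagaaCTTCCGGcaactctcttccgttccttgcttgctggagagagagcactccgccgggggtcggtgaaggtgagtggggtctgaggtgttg
Atp5g1: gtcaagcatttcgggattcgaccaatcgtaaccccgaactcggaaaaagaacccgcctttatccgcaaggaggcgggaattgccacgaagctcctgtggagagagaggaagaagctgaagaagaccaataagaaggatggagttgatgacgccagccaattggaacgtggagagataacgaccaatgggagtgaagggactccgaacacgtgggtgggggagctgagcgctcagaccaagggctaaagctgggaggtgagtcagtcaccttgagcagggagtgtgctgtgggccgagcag
The Cycs match is to GCGCANGCG, the core of the site for NRF1, a transcription factor that drives many respiratory genes, and begins at -61 relative to the start. It is read on the opposite strand, so the capitals show the reverse complement. Atp5h held the same motif at -141 and CCGGAAG, the ETS site that GABP (NRF2) binds, at -38, the latter on the opposite strand.

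Of the 86 members 70 had a promoter in the RefSeq table, and the first listed was used. GCGCANGCG on either strand occurred in 20 of them (28.6%), against 6.47% of 27025 gene promoters of the same length. CCGGAAG occurred in 16 (22.9%, against 9.12%), AAGATGG, a core of the YY1 site, in 10 (14.3%, against 6.48%) and TATAAA, the TATA box, in 8 (11.4%, against 14.2%). Motifs were counted independently, whether or not they overlapped, and the members' promoters had a median GC content of 57.3% against 52.7%. Differences between groups are given with and without each motif as a description. The 20 members above background with GCGCANGCG had a median 10 °C minus 23 °C difference of -0.16, with 18 lower, and the 47 without it -0.12, with 34 lower. The other motifs gave similar gaps. With CCGGAAG the median was -0.18 (13 of 16 lower) and without it -0.12 (39 of 51). For AAGATGG these were -0.18 (8 of 10) and -0.12 (44 of 57), and for TATAAA -0.16 (5 of 6) and -0.14 (47 of 61).

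In complex IV, 14 of 20 subunits were lower in 10 °C than in 23 °C offspring, with a median of -0.13. Of the 13 above background 9 were lower, with a median of -0.11. Cox7a2, the liver form of subunit VIIa, measured 11.19, 11.11, 11.13, 11.35 and 11.13 in the 10 °C animals and 11.66, 11.51, 11.74, 11.48 and 11.77 in the 23 °C animals. These did not overlap, and the difference was -0.45 ± 0.16 (limma adjusted p = 0.282), or -0.29 with the background covariate. The small subunits Cox7b (-0.28 ± 0.11) and Cox7c (-0.15 ± 0.10) also had groups without overlap. Of the larger nuclear subunits, Cox5a was at 0.01 ± 0.14, Cox5b at -0.11 ± 0.12 and Cox4i1 at 0.12 ± 0.15. With the covariate Cox7b was at -0.18 and Cox5b at -0.07.

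**Figure D3:**
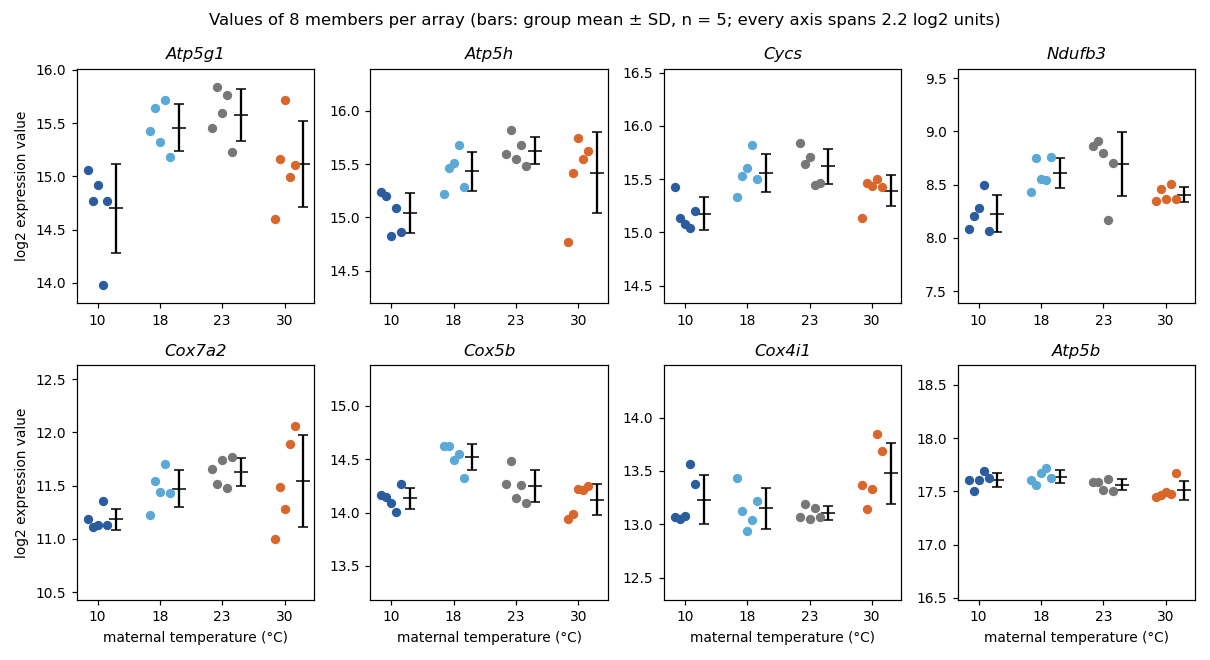
Log2 expression value (vertical axes, each spanning 2.2 units) of 8 members in every animal, by maternal temperature, with the group mean ± SD (n = 5) as bars. Atp5g1, Atp5h, Cycs and Cox7a2 have 10 °C animals below all 23 °C animals, Ndufb3 overlaps through 1 control animal, and Atp5b is nearly level.

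Complex I gave 27 of 35 members lower in 10 °C offspring, with a median of -0.15, and none had groups without overlap. The 6 core subunits on the array, of the arm that takes electrons from NADH to coenzyme Q, had a median of -0.16 and the 29 accessory subunits -0.15. Ndufb3, an accessory subunit of the membrane arm, measured 8.08, 8.21, 8.28, 8.50 and 8.07 in the 10 °C animals and 8.86, 8.91, 8.80, 8.17 and 8.71 in the 23 °C animals. Control animal 17 alone lay within the 10 °C range. The difference was -0.46 ± 0.14 (limma adjusted p = 0.205) and -0.59 without that animal. Ndufc1, another accessory subunit, was at -0.39 ± 0.14. Among the core subunits, Ndufs1 was at -0.31 ± 0.16, Ndufs7 at -0.30 ± 0.16, Ndufv2 at -0.17 ± 0.17, Ndufs3 at -0.15 ± 0.12 and Ndufs8 at -0.12 ± 0.12. Ndufv1, which binds NADH, was at 0.03 ± 0.12. Under the background covariate Ndufs1 was at -0.11, Ndufs3 at -0.07 and Ndufv2 at 0.09.

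Complexes II and III had medians nearer 0. In complex III 7 of 9 members were lower, with a median of -0.047. Uqcrc2, a core protein, was at -0.49 ± 0.18 and Uqcr11 at -0.35 ± 0.14, while Uqcrc1, the other core protein, was at -0.09 ± 0.13. Uqcrc2 was at -0.23 with the background covariate. The redox subunits Cyc1 (cytochrome c1, -0.04 ± 0.14) and Uqcrfs1 (the Rieske protein, 0.18 ± 0.13) did not share a sign. In complex II 3 of 4 were lower, with a median of -0.045. Sdhc, a membrane anchor that binds heme, was at -0.39 ± 0.15, Sdhd, the other anchor, at -0.05 ± 0.14, the flavoprotein Sdha at -0.04 ± 0.13 and the iron-sulphur subunit Sdhb at 0.16 ± 0.12. With the covariate Sdhc was at -0.26 and Sdhb at 0.08.

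Cox6b2, a testis form that is not above background here, had the second smallest p among members. Its values were 2.24, 2.34, 2.68, 2.89 and 2.37 in 10 °C animals and 3.47, 3.19, 2.92, 2.73 and 3.26 in 23 °C animals. The difference was -0.61 ± 0.16 (limma adjusted p = 0.167), and it was -0.72 ± 0.16 in 18 °C and -0.53 ± 0.16 in 30 °C offspring, each against the same controls. The negative control rows were also highest in the 23 °C arrays, at 4.63 ± 0.09 (SD, n = 5) against 4.53 ± 0.03, 4.49 ± 0.07 and 4.59 ± 0.06 at 10, 18 and 30 °C, and their part in this value was not tested. The other forms below background were at 0.06 ± 0.19 (Cox4i2), -0.17 ± 0.17 (Cox6a2), -0.28 ± 0.24 (Cox7b2), -0.19 ± 0.16 (Cox8b), -0.26 ± 0.17 (Cox8c) and 0.21 ± 0.16 (Ndufa4l2).

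Taking each member as its deviation from its own mean over 20 arrays shows how animals differed. The mean deviation over all 86 members was -0.09 ± 0.02 (SD, n = 5) in 10 °C animals, from -0.13 to -0.07. In 23 °C animals it was 0.06 ± 0.09, from -0.02 to 0.20, in 18 °C animals 0.06 ± 0.07, from -0.04 to 0.16, and in 30 °C animals -0.03 ± 0.11, from -0.21 to 0.07. The 10 °C animals lay close together and below all controls, and their spread was the smallest of the 4 groups. The extremes were 23 °C animal 2 and 30 °C animal 4. In the former 8 of the 79 members above background were below their own mean, and in the latter 69. For complex V alone the 10 °C animals were at -0.12 ± 0.02 and the controls at 0.12 ± 0.13, from -0.04 to 0.32.

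**Figure D4:**
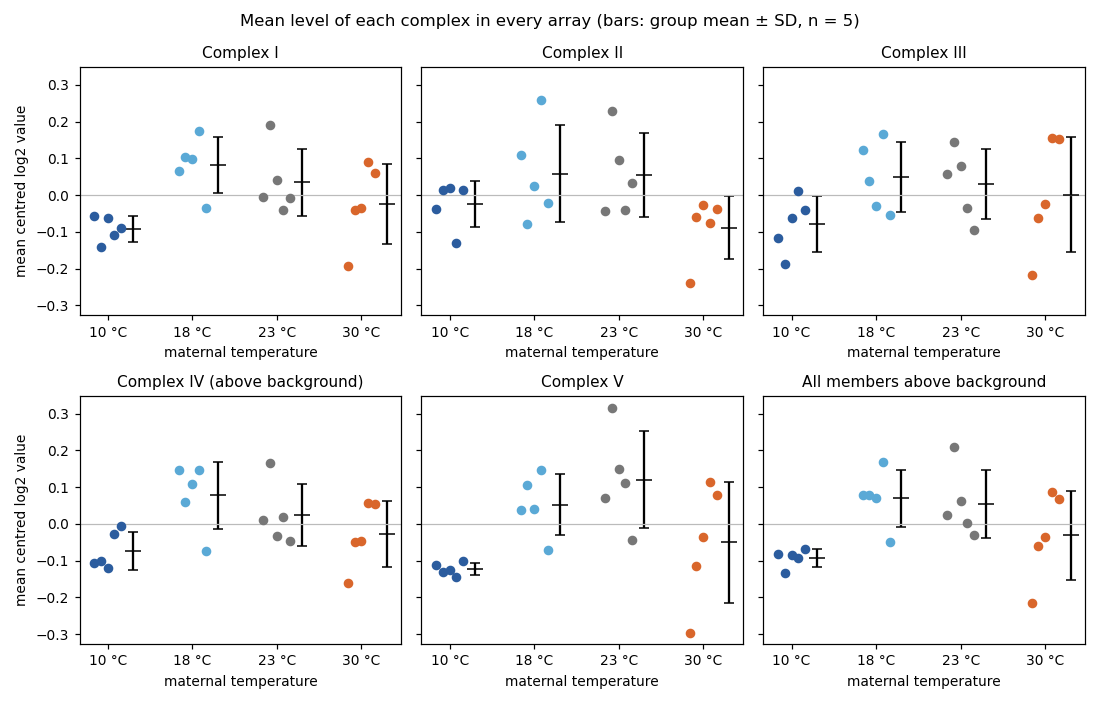
Mean deviation of the members of each complex from their own means (vertical axes, log2 units) in every animal, by maternal temperature, with group mean ± SD (n = 5) as bars. In complex V the 10 °C animals lie between -0.14 and -0.10 and the controls between -0.04 and 0.32. In complexes II, III and IV these groups overlap.

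The 30 °C offspring were compared with the same controls, so both comparisons share the 23 °C animals. Of the 86 members 63 were lower, with a median of -0.11, where 51.3% of all clusters were lower. At an unadjusted limma p under 0.05, 8 members were lower, or 9.30%, against 2.63% of all clusters. At that level 2 were higher (2.33%, against 2.21%). Of the 79 members above background 5 were lower at that level (6.33%), against 2.36% of all clusters above background. The groups did not overlap for 1 member, Ndufc1, against 0.333% of all clusters. By complex, 23 of 35 were lower in complex I (median -0.07), 3 of 4 in II (-0.19), 5 of 9 in III (-0.04), 16 of 20 in IV (-0.10) and 15 of 17 in V (-0.15). Of the 13 complex IV members above background 10 were lower (median -0.09). The median of all members was -0.06 without 30 °C animal 4 and -0.06 without 23 °C animal 2. In either direction there were 10 members (11.6%, against 4.84% of all clusters). Without 30 °C animal 4 there were 6 (6.98%, against 3.61%), and without 23 °C animal 15 also 6 (6.98%, against 4.04%).

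Ndufc1 measured 13.71, 13.93, 13.96, 13.71 and 13.96 in 30 °C animals and 14.18, 14.42, 14.37, 14.21 and 14.04 in 23 °C animals, a difference of -0.39 ± 0.14 (limma adjusted p = 0.978). Atp5pb was at -0.44 ± 0.14 and Atp5g1 at -0.46 ± 0.20. Cox4i1, the general form of the subunit through which ATP inhibits complex IV, had the opposite sign. It measured 13.37, 13.14, 13.33, 13.85 and 13.69 in 30 °C animals and 13.06, 13.19, 13.05, 13.15 and 13.06 in controls, overlapping through 30 °C animal 5. The difference was 0.37 ± 0.15 (limma adjusted p = 0.978), and Cox7a1 was at 0.37 ± 0.16.

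Members were split evenly between the directions in 18 °C offspring against the controls. Of the 86 members 41 were lower and 45 higher, with a median of 0.0033. At an unadjusted limma p under 0.05 there were 3 members, or 3.49%, against 9.25% of all clusters, and these were Cox6b2, lower, and Sdhb and Cox5b, higher. Without 23 °C animal 15 the count was 1 (1.16%, against 7.47% of all clusters). Complexes I and V leaned opposite ways, with 12 of 35 lower in complex I (median 0.07) and 13 of 17 in complex V (median -0.08), a contrast that was not tested. Sdhb was at 0.30 ± 0.12, Cox5b at 0.28 ± 0.12, Ndufb7 at 0.28 ± 0.16 and Ndufa12 at 0.23 ± 0.12. With the background covariate 24 of 86 members were lower, with a median of 0.08.

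**Figure D5:**
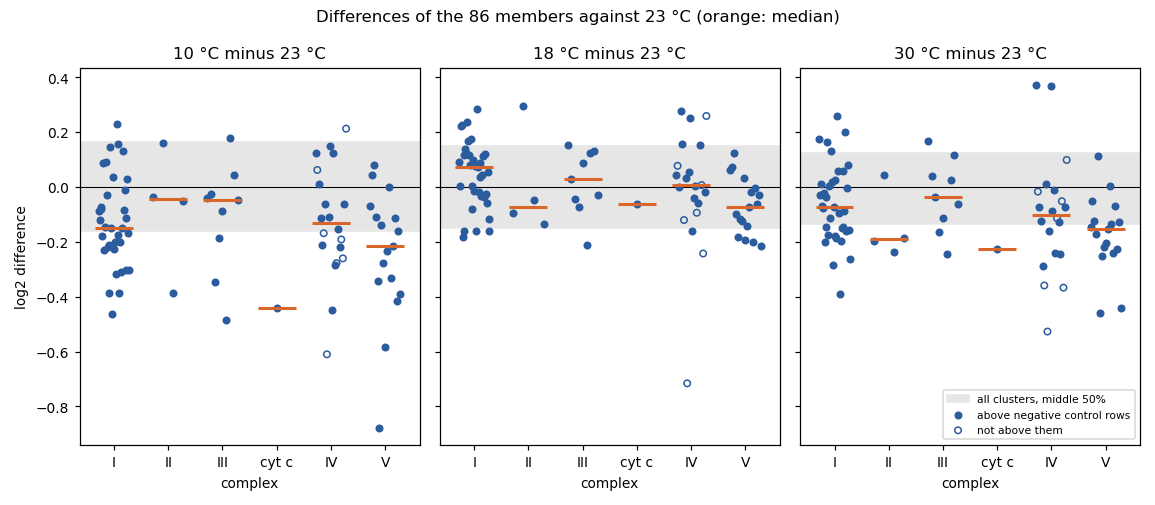
Log2 difference against 23 °C (vertical axis) of each of the 86 members by complex (horizontal axis) for 10, 18 and 30 °C, with orange lines for medians, a grey band for the middle 50% of all clusters, and open points for members not above the negative control rows. Medians in complex V are -0.22, -0.08 and -0.15, and in complex I -0.15, 0.07 and -0.07.

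Comparisons among the 10, 18 and 30 °C groups share their animals with those above. Against 18 °C offspring, 75 of the 86 members were lower at 10 °C, with a median of -0.13, where 49.9% of all clusters were lower. At an unadjusted limma p under 0.05, 18 members were lower (20.9%, against 3.79% of all clusters) and 0 higher (against 4.31%). Groups without overlap were found for 8, against 0.666% of all clusters. With the background covariate the median was -0.13, and 18 members had an unadjusted limma p under 0.05 (20.9%, against 8.51% of all clusters). Atp5g1 was at -0.76 ± 0.20 (limma adjusted p = 0.388), Cox5b at -0.39 ± 0.12 and Ndufa8 at -0.39 ± 0.13. Complex I had 32 of 35 members lower (median -0.16) and complex V 16 of 17 (median -0.13). Atp5g1, Atp5g3 and Cox7b were among those whose 10 °C animals lay below every 18 °C animal and below every control.

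Against 30 °C offspring, 18 °C offspring had 70 members higher, with a median of 0.08. At an unadjusted limma p under 0.05, 8 were higher (9.30%, against 4.21% of all clusters). At that level 1, Cox4i1, was lower (1.16%, against 4.00%). Groups without overlap upward were found for 5, against 0.639% of all clusters. The smallest p values were those of Cox6a1, the liver form of subunit VIa (0.44 ± 0.12, limma adjusted p = 0.365), Cox5b (0.40 ± 0.12) and Ndufc1 (0.42 ± 0.14). Cox5b measured 14.62, 14.62, 14.49, 14.55 and 14.33 at 18 °C and 13.94, 13.99, 14.22, 14.21 and 14.25 at 30 °C. The 18 °C animals were all higher than the 30 °C animals and than the 10 °C animals, which ran from 14.00 to 14.27. With the background covariate 15 members, in place of 9, had an unadjusted p under 0.05. The median over all members was 0.15 with that covariate and 0.05 without 30 °C animal 4, where 29 members were lower in place of 16, and the same count of 29 arose without 18 °C animal 5.

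Between the coldest and the warmest group, 10 °C minus 30 °C, 54 members were lower, with a median of -0.04, and 5 were lower at an unadjusted limma p under 0.05 (5.81%, against 3.13% of all clusters). These were Atp5e (-0.46 ± 0.18), the epsilon subunit of the central stalk, Atp5g1 (-0.42 ± 0.20), Atp5h (-0.38 ± 0.16), Cox7a2 (-0.36 ± 0.16) and Uqcr11 (-0.31 ± 0.14), with limma adjusted p from 0.683 to 0.739. In either direction the share was 5.81%, against 6.76% of all clusters. Of the 30 °C animals, leaving out number 8 gave a count of 0. Number 7 gave 1 (1.16%, against 5.47% of all clusters in the same fit), number 6 gave 3 (3.49%, against 6.21%). Number 4 gave 10 (11.6%, against 8.30%). Leaving out 10 °C animal 4, 5 or 8 gave 2 (2.33%), against 6.21%, 6.39% and 6.07% of all clusters in turn. The background covariate gave 1 (1.16%, against 5.87%). Atp5g1 was at -0.24 without 10 °C animal 6, and Cox7a2 at -0.23 without 30 °C animal 8. The median was 0.0020 with the background covariate and -0.0078 without 30 °C animal 7.

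Over the 4 groups at once, 14 members (16.3%) had an unadjusted F-test p under 0.05 in limma, against 9.86% of all clusters. The smallest adjusted p was 0.345, shared by Atp5g1 and Cox6b2, and Ndufc1, Cox6a1 and Cox5b followed. A slope on maternal temperature was also fitted. At an unadjusted p under 0.05 there were 5 members (5.81%), against 8.15% of all clusters, and the median slope was 0.02 per 10 °C, or 0.00034 with the background covariate. Leaving out 10 °C animal 4 gave a median slope of 0.0098, and leaving out 30 °C animal 4 gave 0.04. The count of 5 then became 2 and 8 in turn, and the covariate gave 1. It was 3 when 10 °C animal 5 or 8, 23 °C animal 1 or 15, or 30 °C animal 7 or 8 was left out. Atp5e (0.24 ± 0.08 per 10 °C), Atp5h (0.21 ± 0.08) and Cox7a2 (0.19 ± 0.08) had the smallest p, with limma adjusted p of 0.500, 0.555 and 0.560.

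Members also varied together among animals of 1 group. After group means were removed, the 3081 pairs of the 79 members above background had a median correlation of 0.22 over the 20 arrays, and 77.3% of pairs were above 0. The 10416 clusters above background had a median of 0.0070, with 51.0% above 0. The median was 0.28 in complex V, 0.26 in complex IV, 0.20 in complex III, 0.17 in complex I and 0.08 in complex II. All pairs share the same arrays and the same normalisation, so these are a description. Atp5mpl (0.80) and Cox7b (0.79) followed the mean of the other members most closely, and Ndufa11 (-0.46) and Ndufa2 (-0.33) ran against it.

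Genes that build or serve the chain were read from lists of assembly factors, regulators and neighbouring pathways, and 0 of them passed in limma in 10 °C against 23 °C. Lower values were found for 7 of 16 complex I assembly factors (median 0.01), 2 of 4 for complex II (0.02), 5 of 6 for complex III (-0.29), 10 of 20 for complex IV (0.01) and 0 of 3 for complex V (0.25). Of the complex III factors, Lyrm7, which guards the Rieske protein, was at -0.52 ± 0.22, Uqcc3 at -0.34 ± 0.15 and Bcs1l, which inserts that protein, at -0.32 ± 0.15. In the complex IV list, Cox20 was at -0.53 ± 0.17, Cox18 at -0.46 ± 0.15 and the copper chaperone Cox17 at -0.38 ± 0.16. For complex I, Ndufaf1 was at -0.44 ± 0.16.

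The regulators did not share a direction, with 7 of 13 lower and a median of -0.01. Nrf1 was at 0.40 ± 0.18 (limma adjusted p = 0.379), while the coactivator gene Ppargc1a was at -0.27 ± 0.33, Gabpa at 0.18 ± 0.16 and Tfam, which maintains mitochondrial DNA, at -0.34 ± 0.26. In the citric acid cycle 7 of 12 were lower (median -0.04), and malate dehydrogenase Mdh2 was at -0.43 ± 0.13 (limma adjusted p = 0.209). Of 9 genes for electron entry 3 were lower (median 0.05), and of 11 for coenzyme Q synthesis 7 (median -0.06).

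Markers of cell types were read beside these values. The summed log2 level of the 10 hepatocyte markers was 192.3 to 192.8 in 10 °C animals and 192.4 to 192.9 in controls. The sum over 9 macrophage markers was 67.5 to 72.4 in 10 °C and 61.6 to 69.7 in 23 °C animals, with 8 of 9 higher (median 0.34, 0 called by limma). At 18 °C it was 66.3 to 73.5 and at 30 °C 63.6 to 71.3. Its part in the results was not tested. The erythroid marker Alas2, whose protein makes heme, was at -0.62 ± 0.16 (limma adjusted p = 0.165), and its part was not tested either. All 6 lymphocyte and all 3 neutrophil markers were below the negative control rows, as were 4 of 5 brown fat and adipocyte markers, Ucp1 among them (2.90), and 4 of 5 muscle markers. The sum over 7 endothelial markers was 62.5 to 64.9 in 10 °C animals and 61.2 to 63.8 in controls, and over 7 stellate cell markers 51.7 to 53.9 and 50.3 to 53.0.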

How the data were processed

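Liver RNA of 20 mice was hybridised to Affymetrix arrays, 1 per mouse, after column extraction and biotin labelling. Values are log2, as deposited, and the authors made them with RMA (background correction, quantile normalisation and probe summary) and the Transcriptome Analysis Console, per the submitters' processing notes. Versions and settings are not given in the sources used here. Quantile normalisation hides a shift of all transcripts together, and the number of arrays limits the precision. Of 28846 rows, 6640 were controls and 22206 transcript clusters, of which 19572 had 1 symbol, 0 several and 2634 none. Values ran from 1.18 to 19.93, array medians from 4.46 to 4.56 and correlations between arrays from 0.987 to 0.993, and 0 pairs were identical.

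Group means were estimated for each cluster over the 20 arrays together by limma (version 3.58.1, under R 4.3.3; eBayes), and p-values, two-sided, were adjusted by the Benjamini-Hochberg method over all 22206 clusters. Code was tested on simulated data. Members follow a symbol rule, and the named ones were those with the smallest p in each test (12 for 10 °C against 23 °C, 5 or 3 in the others), 20 core subunits and 8 tissue-restricted forms. Other members are named to complete a complex or a count, after their values were seen. Members, lists and rules were chosen with earlier results of these data known. Promoters and motifs were matched by symbol. Alternatives covered the variance model, a background covariate, array centring, a filter on dim rows, rows per symbol, the animal number as a block, the groups in the fit and leaving out each array.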

Additional observations from a re-analysis of the deposited data

Results flagged for a closer look

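In each group of 5 animals the highest or lowest value of the results above was set against the others by Dixon's criterion. Of 196 groups tested 10 had an animal apart, where chance marks about 1 in 20 groups. Among single members, Atp5g1 was low in 10 °C animal 6 (13.98, others 14.76 to 15.06), Cycs in 30 °C animal 4 (15.14, others 15.42 to 15.50) and Ndufb3 in 23 °C animal 17 (8.17, others 8.71 to 8.91). Uqcrc1 was high in 18 °C animal 5 (13.55, others 13.26 to 13.33) and Atp5b in 30 °C animal 8 (17.67, others 17.45 to 17.49). Of the forms below background, Cox6a2 was low in 30 °C animal 8 (3.29, others 3.47 to 3.51) and Cox8b in 18 °C animal 1 (2.43, others 2.77 to 2.89).

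For mean deviations, 10 °C animal 4 was low over all members (-0.13, others -0.09 to -0.07). The 30 °C animal 4 was low in complex II (-0.24, others -0.08 to -0.03) and in complex IV (-0.16, others -0.04 to 0.01).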

How the results depend on the processing

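No member passed the adjusted threshold under any of 27 settings, of which 20 left out 1 array each, and the smallest limma adjusted p of a member in any of them was 0.0750. Leaving out 1 array gave medians of -0.15 to -0.10 for 10 °C minus 23 °C (63 to 68 members lower), -0.02 to 0.04 for 18 °C minus 23 °C (34 to 51), -0.14 to -0.06 for 30 °C minus 23 °C (57 to 66), -0.07 to -0.0078 for 10 °C minus 30 °C (45 to 61), 0.05 to 0.12 for 18 °C minus 30 °C (11 to 29) and -0.16 to -0.11 for 10 °C minus 18 °C (68 to 76). In 18 °C minus 30 °C the count of 29 arose without 18 °C animal 5 and without 30 °C animal 4. The median slope ran from 0.0098 to 0.04. With the background covariate, the count of lower members in 18 °C minus 23 °C was 24. Counts at an unadjusted limma p under 0.05 also moved by over 1.5 times with only the compared pair in the fit. For 10 °C minus 30 °C the count was then 1 (1.16%, against 6.04% of all clusters). For 18 °C minus 30 °C it was 5 (5.81%, against 7.47%). An intensity trend and robust variance gave 14 in the latter comparison (16.3%, against 8.20%). A fit of only the compared pair was not run for the F-test and slope, which need all groups.

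Animal numbers are shared by some groups, and 11 same-numbered pairs had correlations of deviations from -0.15 to 0.11, 1 of them over 0.1. The 139 pairs with different numbers ran from -0.17 to 0.33, with 17 over 0.1. The labels do not say what the numbers stand for, so these values cannot show whether they pair animals. With the number as a replicate block, the median was -0.20 for 10 °C minus 23 °C (70 lower), -0.17 for 30 °C minus 23 °C and -0.01 for 18 °C minus 23 °C. Numbers 15, 17 and 23 occur only at 23 °C and number 3 only at 18 °C, so the block fits these arrays exactly. Comparisons with 23 °C then rest on 23 °C animals 1 and 2 alone, and animal 2 was an extreme array. Under this block 0 members were called, and counts at an unadjusted limma p under 0.05 fell. They were 7 for 10 °C minus 23 °C (8.14%, against 5.93% of all clusters) and 4 for 30 °C minus 23 °C (4.65%, against 3.68%). For 10 °C minus 18 °C the count was 10 (11.6%, against 6.21%), and for 18 °C minus 30 °C 3 (3.49%, against 6.01%). The F-test gave 3 (3.49%, against 5.71%).

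Of 1635 refits of single genes, 26 turned the sign, all in 10 °C minus 23 °C and of differences from -0.17 to 0.15, and the cause was not tested. Core subunits and tissue-restricted forms were refitted in this comparison whatever their values, and in the others only members with the smallest p. Where signs turned was thus largely set by this choice. With the block the genes that turned were Ndufv1 (-0.0563), Cyc1 (0.0634), Cox5a (-0.119), Atp5a1 (0.0128), Atp5b (-0.0389), Atp5c1 (-0.0131), Cox4i2 (-0.0763) and Cox7a1 (-0.113). With the background covariate they were Ndufv2 (0.0903), Sdha (0.10), Sdhd (0.0491), Uqcrc1 (0.0670), Cyc1 (0.0672), Cox5a (-0.0370), Atp5a1 (0.0257) and Cox6a2 (0.0179). Leaving out 1 array gave -0.0174 to 0.0717 for Ndufv1, -0.132 to 0.0318 for Sdhd, -0.0963 to 0.0084 for Cyc1, -0.0696 to 0.0636 for Cox5a and -0.0884 to 0.170 for Cox4i2.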
